A study of Sus scrofa with 4 samples.

Results

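Sister clones of porcine induced pluripotent stem cells (iPSCs) were compared with each other by RNA sequencing, clone 2 against clone 1, over all 25880 genes of the count table. The comparison took 2 of the 4 libraries of the series, 1 for each clone, both at passage 3. Both clones descended from ear skin fibroblasts of the same post-neonatal pig, N01F, so they share a donor. The fibroblasts had been transfected with episomal vectors, plasmids that are copied in the cell without being inserted in the genome, which carried human reprogramming factor genes, further factors and EGFP. Dome-shaped colonies of induced neural stem cell-like cells (iNSLCs) emerged first on mouse feeder cells. iPSC colonies were then picked by hand and kept in a pluripotency medium that contained IWP2, which blocks WNT secretion, together with TGF-β1 and activin A. The other libraries, the parental fibroblasts and the iNSLCs, both at passage 1, served only to place the genes that set the clones apart. Each line is a single clone of a single animal and each library stands alone. A difference between the clones therefore cannot be told apart from one between cultures, RNA preparations or libraries, and no p-value is given.

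Each iPSC clone is founded by few reprogrammed cells and can carry its own record of how far and by which path those cells were reset. Among the features that are known to vary between sister lines of pluripotent cells are genes marked by DNA methylation, such as imprinted genes and genes expressed in the cell of origin, the state of the X chromosomes in female lines, and the share of cells that drift toward early embryonic lineages. Pluripotent stem cells are themselves epithelial cells, held together by E-cadherin, and keep a balance between pluripotency factors and the activin, BMP, WNT and FGF signals that start differentiation.

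Levels are given as CPM, counts per 1000000 after scaling of the library sizes by TMM. Total counts were 21640374 in clone 1 and 41296933 in clone 2, so that 10 CPM stood on 236.9 and 457.6 counts and 3 counts on 0.127 and 0.0656 CPM. Ratios between the clones are given with 95% exact binomial intervals, which cover counting error only and not the spread between cultures of a clone.

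Both libraries held the markers of the labelled cell type at levels close to each other. POU5F1, which encodes the pluripotency factor OCT4, was at 295 CPM in clone 1 and 275 CPM in clone 2, and had 0 counts in the fibroblasts. SOX2 was at 211 and 254 CPM and NANOG at 52.4 and 40.9 CPM. The study detected NANOG RNA by RT-PCR in the porcine iPSCs, but found them negative for NANOG protein by immunostaining. The RNA-binding protein gene LIN28A was at 285 and 349 CPM, the transcription factor gene SALL4 at 333 and 406 CPM, and the cell adhesion genes CDH1 and EPCAM at 801 and 616 CPM and at 247 and 172 CPM. None of these 7 genes differed by as much as 1.5-fold. Markers of the starting cells were low in both: the summed level of the fibroblast and matrix list was 6115 CPM in clone 1 and 5497 CPM in clone 2, against 216400 CPM in the fibroblasts. Markers of other cell types were present as well. Their summed levels in clone 1 and clone 2 lay furthest from similar for neural crest and placode (391.6 and 265.2 CPM) and chondrocytes (538.8 and 766.8 CPM), among these and the lists that follow. The summed level was 1320 and 1447 CPM over 27 genes of neurons, where CRMP1 and DPYSL5 contributed 108 and 133 CPM and 169 and 215 CPM and NEUROD1 and NEUROD4 had 0 counts in both clones. It was 244.5 and 218.9 CPM over 9 genes of melanocytes, where DCT was at 11.2 and 15.7 CPM and MLANA had 0 counts in both. It was 1377 and 1242 CPM over 9 genes of keratinocytes and surface ectoderm (IVL at 0 counts), 379.4 and 300.3 CPM over 18 genes of germ cells (DAZL among 4 at 0 counts) and 43.7 and 38.7 CPM over 17 genes of blood (MPO and GATA1 at 0 counts). The part of such cells in the differences below was not tested. In bulk RNA, fewer cells of a type and less RNA in each cell cannot be told apart.

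The clones lay close together over most of the transcriptome. Among 8771 genes at 10 CPM or more in both clones, 96.5% lay within 1.5-fold of each other. Their log2 ratios, clone 2 over clone 1, had a median of 0.03, quartiles of -0.09 and 0.15 and a median absolute deviation of 0.118. This was more than counting alone gives. Between 30 and 100 CPM the median absolute deviation was 0.108, where counting error accounts for 0.0342. The 9250 genes at 10 CPM or more in the higher clone included 117 that were at least 2-fold higher in clone 1 (1.26%) and 22 that were at least 2-fold higher in clone 2 (0.238%). At least 4-fold differences were found for 29 genes in favour of clone 1 (0.314%) and 4 in favour of clone 2 (0.0432%). The imbalance toward clone 1 was smaller over the 13214 genes at 1 CPM or more in the higher clone, with 426 genes 2-fold higher in clone 1 and 237 in clone 2. The genes nearest the 2-fold limit were TXNIP (2.005-fold higher in clone 2) and IFFO2 (2.004-fold higher in clone 1) inside it, and MAGEL2 (1.99-fold) and KLF4 (1.98-fold) outside it.

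**Figure D1:**
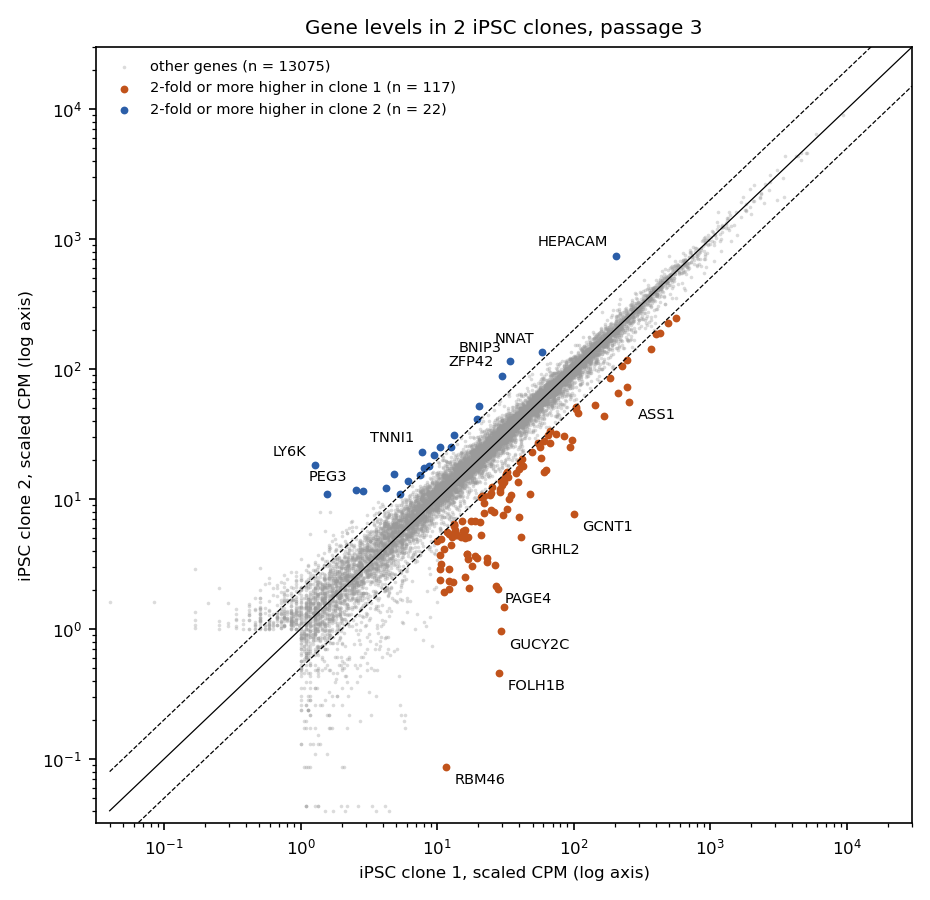
Level of each gene in iPSC clone 1 (x axis) and clone 2 (y axis), in scaled CPM on log axes, for 13214 genes at 1 CPM or more in either clone; the solid line marks equal levels and the dashed lines 2-fold. The 117 genes 2-fold higher in clone 1 reach much further from the line (RBM46, FOLH1B, GUCY2C) than the 22 genes 2-fold higher in clone 2.

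The 7 genes with the largest differences in favour of clone 1 ranged from 12.7-fold to 133-fold. RBM46, an RNA-binding protein gene of germ cells, was at 11.65 CPM in clone 1 (276 counts) and 0.0874 CPM in clone 2 (4 counts), 133-fold lower (interval 51.5 to 493). FOLH1B, a relative of the folate hydrolase gene FOLH1, was at 28.6 and 0.459 CPM (62.3-fold, 40.4 to 101). GUCY2C, the intestinal receptor guanylate cyclase for guanylin peptides, was at 29.4 and 0.962 CPM (30.6-fold, 22.5 to 42.5). For all 3 the clone 2 level was at or under 1 CPM. HTATIP2, an oxidoreductase gene linked to apoptosis, was at 31.0 and 1.49 CPM (20.9-fold), and FAM83F at 27.8 and 2.03 CPM (13.7-fold). GCNT1, which encodes the enzyme that starts core 2 branches of O-glycans, was at 101 and 7.65 CPM (13.2-fold, 11.8 to 14.8), the best measured of this group with 2383 and 350 counts. PAGE4, a cancer/testis gene on the X chromosome, was at 27.1 and 2.14 CPM (12.7-fold).

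Several of these genes were expressed in the fibroblasts and iNSLCs from which the line was derived. FOLH1B was at 10.8 CPM in fibroblasts and 32.1 CPM in iNSLCs, HTATIP2 at 38.6 and 13.5 CPM, and GUCY2C at 6.95 and 19.8 CPM. Clone 2 had the lowest level of the 4 libraries for these 3 genes. The same held for PFKFB2, a regulator of glycolysis (17.1 CPM in clone 1 and 2.05 CPM in clone 2, with 29.1 CPM in fibroblasts and 13.3 CPM in iNSLCs), and for the kinase gene MAP3K13 (16.1 and 2.54 CPM, with 4.86 and 16.5 CPM). It also held for GSTO1, a glutathione transferase (19.5 and 3.54 CPM, with 65.3 and 14.5 CPM), and for GNG11, a G protein subunit gene (12.2 and 2.34 CPM, with 18.2 and 5.51 CPM). Of the 20 named genes with the lowest ratios, clone 2 had the lowest level of all 4 libraries for 10. Over all 117 genes this was so for 47 (40.2%), against 32.2% of the 9250 genes for whichever clone was lower. A wide gap between the clones, by which the 117 genes were picked, itself makes such a place more likely. This share and the next therefore follow in part from that choice. Conversely, clone 1 had the highest level of the 4 libraries for 72 of the 117 genes (61.5%, against 40.5% of all genes for the higher clone). Among the latter were ASS1, which encodes argininosuccinate synthase of arginine synthesis, at 256 and 56.2 CPM in the clones (4.55-fold), 16.3 CPM in iNSLCs and 1.21 CPM in fibroblasts, and the glutathione peroxidase gene GPX6 (18.1 and 3.04 CPM, with 0.663 CPM in iNSLCs and 0 counts in fibroblasts). NFIB, a nuclear factor I transcription factor, was at 23.3 and 3.30 CPM (7.05-fold).

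Of the 117 genes, 17 (14.5%) lay at 100 CPM or more in clone 1, against 23.4% of the 9250 genes for the higher clone. The following were chosen after their values were seen: RAP1B, a small GTPase, was at 563 and 249 CPM (2.26-fold), CITED2, a transcriptional coregulator, at 431 and 190 CPM (2.27-fold), PICALM, a clathrin adaptor, at 401 and 187 CPM (2.14-fold), and EXT1, an enzyme of heparan sulfate synthesis, at 371 and 144 CPM (2.58-fold). NR2F2, a nuclear receptor of mesoderm and other lineages, was at 168 and 43.3 CPM (3.87-fold). In CPM, the 5 largest deficits of clone 2 were those of PABPC1 and EIF4G2, of the translation machinery (3458 and 2107 CPM, and 3063 and 1999 CPM), the matrix gene FN1, the mitochondrial ATP6 and the RNA helicase gene DDX5. None of these 5 reached 2-fold.

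Fewer genes at 10 CPM or more were at least 2-fold higher in clone 2. LY6K, a GPI-anchored protein gene known from testis and tumours, was at 1.27 CPM in clone 1 (30 counts) and 18.3 CPM in clone 2 (837 counts), 14.4-fold higher (10.04 to 21.5), with 1.26 CPM in iNSLCs and 0.0864 CPM in fibroblasts. It was the only gene at 10 CPM or more in the higher clone that was past 10-fold in this direction. The imprinted gene PEG3 was at 2.53 and 11.7 CPM (4.61-fold) and SHANK2, a scaffold protein of synapses, at 2.87 and 11.6 CPM (4.03-fold). The adhesion gene HEPACAM was at 206 and 747 CPM (3.63-fold, 3.52 to 3.74), with 438 CPM in iNSLCs and 744 CPM in fibroblasts. The annotation places another gene, HEPN1, over its span, so the reads cannot be assigned to HEPACAM with certainty. BNIP3, a mitophagy gene induced by hypoxia, was at 34.4 and 114 CPM (3.33-fold), while iNSLCs had 107 CPM and fibroblasts 76.3 CPM. For BNIP3 and PEG3 clone 1 had the lowest level of the 4 libraries, as it did for 9 of the 22 genes (40.9%). That share, too, follows in part from picking genes by the gap between the clones.

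Among the other named genes of this direction, TNNI1, MYL4, MYH6 and XIRP1 are genes of striated muscle and are described with the cardiac genes. The lactate transporter gene SLC16A3 was at 10.5 and 25 CPM (2.39-fold), and TXNIP, an inhibitor of thioredoxin that follows glucose supply, at 12.6 and 25.3 CPM. TAC3, the neurokinin B precursor gene, was at 13.3 and 30.9 CPM (2.32-fold), the synaptic adhesion gene LRRTM4 at 7.98 and 17.2 CPM, and DPYSL4 at 7.43 and 15.4 CPM. CHST9, a sulfotransferase of N-acetylgalactosamine, was at 6.16 and 13.8 CPM, the transcriptional regulator TOX2 at 8.78 and 18.01 CPM, and the scavenger receptor gene SCARF2 at 5.36 and 11.01 CPM. These 8 genes lay between 2.005-fold and 2.39-fold. In CPM, the 5 largest gains were those of the mitochondrial ND5 (3512 and 4329 CPM), HEPACAM, the actin crosslinker FLNA, the glycolytic GAPDH and the glucose transporter gene SLC2A3 (1132 and 1607 CPM).

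Pluripotency genes were not uniformly shifted. Of the 12 genes that the study's text names, 11 reached 1 CPM; 1 was at least 2-fold higher in clone 2 and 1 in clone 1, beside 1.79% and 3.22% of all 13214 genes at 1 CPM or more in either clone. Ratios were above 1 for 4 and below 1 for 7 of the 11 (median log2 ratio -0.25, against 0.04 for all genes). Over all 13214 genes, 7483 ratios were above 1 and 5731 below. These values are the background for the counts of every list below. ZFP42, which encodes the pluripotency-associated zinc finger protein REX1, was at 29.8 and 88.8 CPM (2.98-fold higher in clone 2, 2.75 to 3.23), above the 11.9 CPM of iNSLCs in both. DPPA2 was at 2.19 and 0.590 CPM (3.72-fold lower, on 52 and 27 counts). KLF4 was at 27.1 and 13.7 CPM, and UTF1, a chromatin protein of pluripotent cells, at 27.9 and 17.0 CPM (1.64-fold lower). TDGF1, the NODAL co-receptor gene, was at 8.32 and 7.01 CPM and the telomerase gene TERT at 10.3 and 11.3 CPM, with intervals that included equal levels, and DPPA5 stood at 6 and 11 counts.

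Of 27 genes of core and primed pluripotency, 15 had ratios above 1 and 12 below (median log2 ratio 0.06). FGF5, the marker of the formative and primed epiblast, was at 1.14 and 2.73 CPM (2.396-fold, 1.57 to 3.78), the only member past 2-fold. The NODAL family genes of this list were lower in clone 2: GDF3 was at 12.0 and 6.16 CPM, NODAL at 36.98 and 21.6 CPM, and LEFTY2 at 42.3 and 31.5 CPM. LIN28B, of the same family as LIN28A, was higher in clone 2 at 138 and 192 CPM. Of 13 genes of naive pluripotency, 10 were lower in clone 2 and 3 of those by 2-fold or more. ESRRB was at 9.75 and 4.07 CPM (2.399-fold), below the 29.98 CPM of iNSLCs in both clones, and TFAP2C at 57.0 and 25.04 CPM (2.28-fold), below their 74.6 CPM. The third was DPPA2. ZFP42, which is also on this list, lay in the opposite direction, and KLF5, SOCS3, GBX2, STAT3, KLF2 and SUSD2 were within 1.5-fold.

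The pig counterparts of the vector genes included POU5F1, SOX2, NANOG, LIN28A and KLF4, given above. GLIS1 was at 0.591 CPM (14 counts) and 2.49 CPM (114 counts), 4.21-fold higher in clone 2 (2.41 to 7.95), and far below the 21.9 CPM of iNSLCs and 41.9 CPM of fibroblasts in both. MYCL was at 25.2 and 18.6 CPM and KLF2 at 3.29 and 3.28 CPM. The passage at which the study looked for loss of the vectors came later. Whether reads of remaining vector sequence were counted at these genes was not tested.

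Epithelial genes differed in the same direction throughout. All 22 measured members of the epithelial list had a ratio below 1 (median log2 ratio -0.52). Of these, 5 were at least 2-fold higher in clone 1 and 0 in clone 2, beside 3.22% and 1.79% of all genes. GRHL2, a transcription factor that maintains epithelial junction genes, was at 41.4 CPM in clone 1 and 5.09 CPM in clone 2 (8.13-fold, 7.04 to 9.41), with 16.4 CPM in iNSLCs and 0.173 CPM in fibroblasts. GRHL3, of the same family, was at 5.995 and 1.75 CPM (3.43-fold). CLDN4, a tight junction claudin, was at 143 and 52.6 CPM (2.72-fold) and the keratin gene KRT7 at 32.5 and 8.41 CPM (3.86-fold). OVOL1, a repressor of mesenchymal genes, was at 8.74 and 4.13 CPM (2.12-fold), and ELF3 at 10.6 and 6.01 CPM. The most abundant members, the simple epithelial keratins KRT8 (1.02-fold) and KRT18 (1.11-fold), were close to equal, and restricting the list to members at 10 CPM or more brought the median to -0.37. The epithelial protease inhibitor gene SPINT2 (107 and 45.7 CPM), chosen after its value was seen, and the receptor gene ERBB3 (185 and 85.7 CPM) were not on the list and lay in the same direction.

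Markers of surface ectoderm and of trophoblast and amnion included genes that were several-fold higher in clone 1. TP63, the regulator of stratified epithelia, was at 3.93 and 0.612 CPM (6.42-fold), TRIM29 at 1.60 and 0.175 CPM and the desmosomal gene DSG3 at 1.18 and 0.131 CPM. All 3 were higher in iNSLCs (8.72, 13.5 and 6.84 CPM) than in either clone. The other 4 measured members of the keratinocyte and surface ectoderm list, DSP, ITGB4, PERP and JUP, lay within 1.197-fold. The trophoblast and amnion list had a median log2 ratio of -0.15. Of its 17 members, 6 were at least 2-fold higher in clone 1 and 1 in clone 2, beside 3.22% and 1.79% of all genes. Beside TP63, KRT7 and TFAP2C, these were ELF5, a trophoblast transcription factor (4.35 and 0.874 CPM, 4.97-fold), GABRP, a GABA receptor subunit gene (210 and 65.7 CPM, 3.19-fold, with 872 CPM in fibroblasts), and WNT6 (2.11 and 0.743 CPM). ISL1, of amnion, cardiac progenitors and motor neurons, went the other way at 1.77 and 4.89 CPM (2.76-fold).

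**Figure D2:**
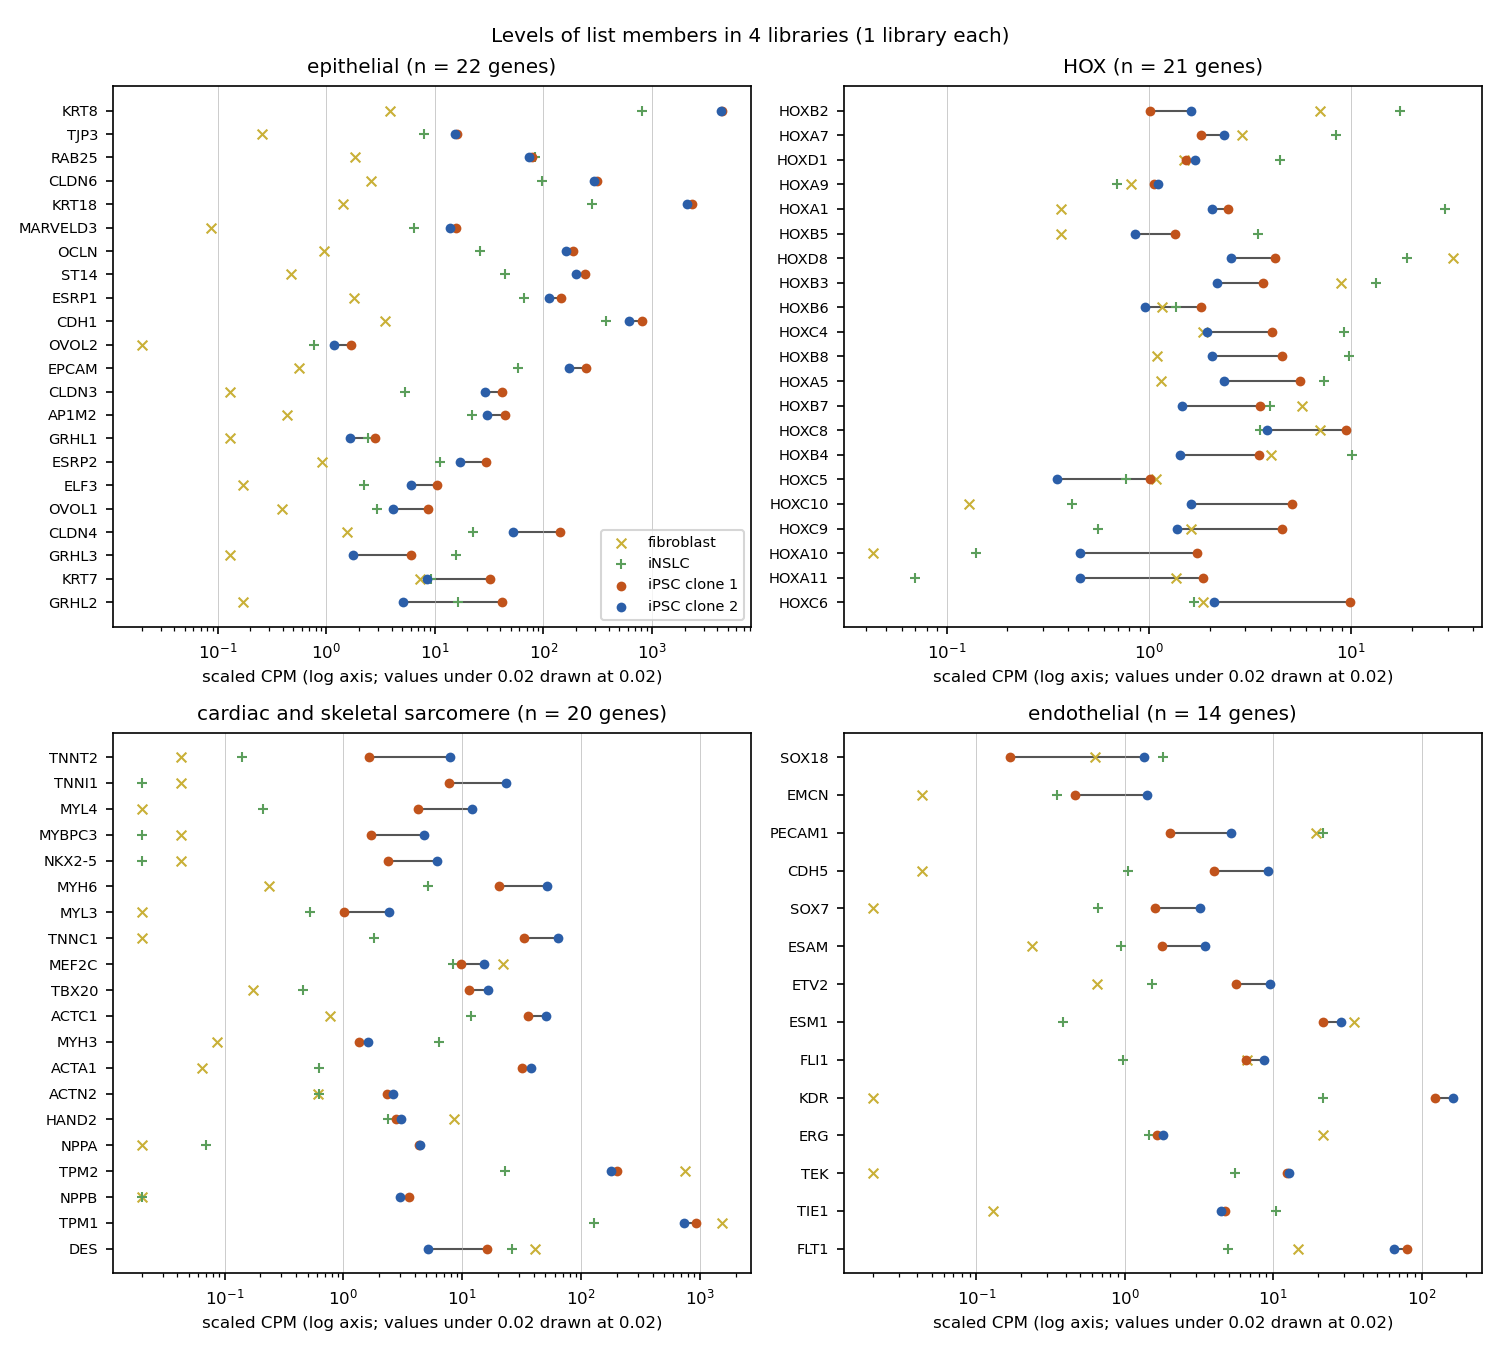
Levels in scaled CPM (log axis) of the measured members of 4 gene lists in each of the 4 libraries, genes ordered by the ratio between the clones; the grey line joins clone 1 and clone 2. All 22 epithelial genes lie higher in clone 1, as do 17 of 21 HOX genes, whereas 16 of 20 sarcomere genes and 12 of 14 endothelial genes lie higher in clone 2. Over all 13214 genes at 1 CPM or more in either clone, 7483 lie higher in clone 2.

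HOX genes, which encode positional identity along the body axis and are largely silent in pluripotent cells, were low in both clones and lower in clone 2. Of 21 members at 1 CPM or more, 12 were at least 2-fold higher in clone 1 and 0 in clone 2, beside 3.22% and 1.79% of all genes. The median log2 ratio was -1.15, the lowest of the 39 lists. Differences past 2-fold are more frequent at low levels: they held for 15.9% of all genes at a mean of 1 to 3 CPM and 6.41% at 3 to 10 CPM. HOXC6 was at 9.84 and 2.10 CPM (4.69-fold), HOXA11 at 1.86 and 0.459 CPM, HOXA10 at 1.73 and 0.459 CPM, and HOXC9 at 4.56 and 1.38 CPM. HOXC10 was at 5.11 and 1.62 CPM and HOXC5 at 1.01 and 0.350 CPM. These 6 genes were thus between 2.898-fold and 4.69-fold apart. All 6 measured genes of the HOXC cluster were at least 2-fold higher in clone 1, while the ratios of 4 genes of the other clusters, HOXB2, HOXA7, HOXA9 and HOXD1, lay above 1 (chosen after their values were seen). No member reached 10 CPM, and the summed level of the list was 79.7 CPM in clone 1 and 38.8 CPM in clone 2, against 96.8 CPM in fibroblasts and 192.7 CPM in iNSLCs.

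Genes of the primitive streak and of NODAL signalling were mostly lower in clone 2. Of 23 mesendoderm genes, 4 were at least 2-fold higher in clone 1 and 0 in clone 2, beside 3.22% and 1.79% of all genes. Ratios were below 1 for 15 of them (median log2 ratio -0.22). FGF17 was at 16.5 and 3.78 CPM (4.37-fold, 3.64 to 5.25), CER1, a secreted inhibitor of NODAL, BMP and WNT, at 33.4 and 9.96 CPM (3.35-fold, 2.98 to 3.76), and GSC, a homeobox gene of the organizer, at 10.7 and 4.96 CPM (2.15-fold). CDX1 stood on few counts in clone 2, at 1.14 and 0.240 CPM. MIXL1 was at 5.45 and 2.86 CPM and WNT3 at 22.5 and 11.9 CPM. EOMES (157 and 109 CPM) and TBXT (14.1 and 8.70 CPM), chosen after their values were seen, lay in the same direction. Of 18 activin, NODAL and TGF-β targets, 3 were at least 2-fold higher in clone 1 and 0 in clone 2 (median log2 ratio -0.23). They were FGF17, CER1 and INHBA, which encodes the subunit of activin A itself (247 and 117 CPM). SMAD7, the inhibitory SMAD of this pathway, was at 56.7 and 35.8 CPM. Both clones had been grown with activin A and TGF-β1.

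FGF and ERK feedback genes did not share this shift. FGF4 was at 2.66 and 0.830 CPM (3.20-fold), the only member of 23 past 2-fold, DUSP5 was at 177 and 122 CPM, and the median log2 ratio was -0.01. ETV4 was at 68.7 and 52.5 CPM but ETV5 at 138 and 170 CPM. The WNT feedback targets had a median of 0.12, with 1 of 20 past 2-fold (CDX1), AXIN2 at 35.1 and 26.2 CPM and NKD1 at 7.73 and 10.6 CPM. The receptor gene FZD7 was at 325 and 483 CPM.

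Cardiac, endothelial and BMP genes were higher in clone 2. Of 20 genes of the cardiac and skeletal sarcomere list, 7 were at least 2-fold higher in clone 2 and 1 in clone 1. Over all genes these shares were 1.79% and 3.22%. Ratios were above 1 for 16 of the 20 (median log2 ratio 0.51). The troponin genes TNNT2 and TNNI1 were at 1.65 and 7.91 CPM (4.80-fold, 3.45 to 6.87) and at 7.77 and 23.2 CPM (2.98-fold, 2.55 to 3.51). The atrial myosin light chain gene MYL4 was at 4.22 and 12.2 CPM (2.88-fold), and MYBPC3, of myosin-binding protein C, at 1.69 and 4.74 CPM. NKX2-5, the cardiac homeobox gene, was at 2.36 and 6.08 CPM (2.57-fold). MYH6, of the cardiac α-myosin heavy chain, was at 20.3 and 51.8 CPM (2.55-fold); its paralog MYH7 had 0 counts in both clones, so reads of the pair may have been assigned to MYH6 alone. XIRP1, which binds actin in heart muscle and was on no list, was at 9.50 and 21.6 CPM. In fibroblasts and iNSLCs TNNT2, TNNI1, MYL4, MYBPC3, NKX2-5 and XIRP1 were all under 0.4 CPM. DES, of the muscle intermediate filament desmin, went the other way at 16.1 and 5.18 CPM (3.11-fold), with 40.8 CPM in fibroblasts. The summed level of the whole list was 1314 CPM in clone 1 and 1236 CPM in clone 2, since genes that are also expressed outside muscle, such as TPM1, made up most of it.

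Of 14 endothelial genes, 5 were at least 2-fold higher in clone 2 and 0 in clone 1, beside 1.79% and 3.22% of all genes. Ratios were above 1 for 12 of them (median log2 ratio 0.59, the highest of the lists). CDH5, the endothelial cadherin gene, was at 3.97 and 9.22 CPM (2.32-fold, 1.85 to 2.94), PECAM1 at 2.03 and 5.20 CPM (2.57-fold), and SOX7 at 1.60 and 3.21 CPM (2.002-fold). EMCN stood at 11 and 65 counts and SOX18 at 4 and 62 counts. In fibroblasts and iNSLCs PECAM1 was higher than in either clone, at 19.45 and 21.5 CPM. There CDH5 was at 0.0432 and 1.05 CPM, SOX7 at 0 and 0.663 CPM, EMCN at 0.0432 and 0.349 CPM and SOX18 at 0.626 and 1.815 CPM. Most genes of the list are weakly expressed in the clones, and over the members at 10 CPM or more the median was 0.22. TAL1, of the blood and endothelial lineage, was at 0.338 and 1.42 CPM, with 9.65 CPM in fibroblasts and 1.05 CPM in iNSLCs. ISL1 and AFP (2.19 and 4.52 CPM) were likewise higher in clone 2. AFP was the only member past 2-fold among 15 measured genes of the definitive endoderm and gut list. Ratios of that list were above 1 for 10 genes and below 1 for 5 (median log2 ratio 0.24).

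The BMP list had a median log2 ratio of 0.40, with 14 of 18 ratios above 1 and none past 2-fold. SMAD6, the inhibitory SMAD induced by BMP, was at 13.97 and 26.5 CPM (1.90-fold, 1.68 to 2.15), BMP4 at 62.9 and 92.0 CPM (1.46-fold), the secreted modulator BMPER at 38.5 and 63.1 CPM, and ID4 and ID3, direct targets of the pathway, at 39.1 and 58.3 CPM and at 106 and 152 CPM. SMAD7, which is on this list as well, was lower in clone 2 as given above. The chondrocyte list, with the fibrillar collagen genes COL2A1 (218 and 344 CPM, 1.58-fold) and COL11A1 (66.5 and 111 CPM, 1.67-fold), had a median of 0.29, with 8 of 9 ratios above 1.

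**Figure D3:**
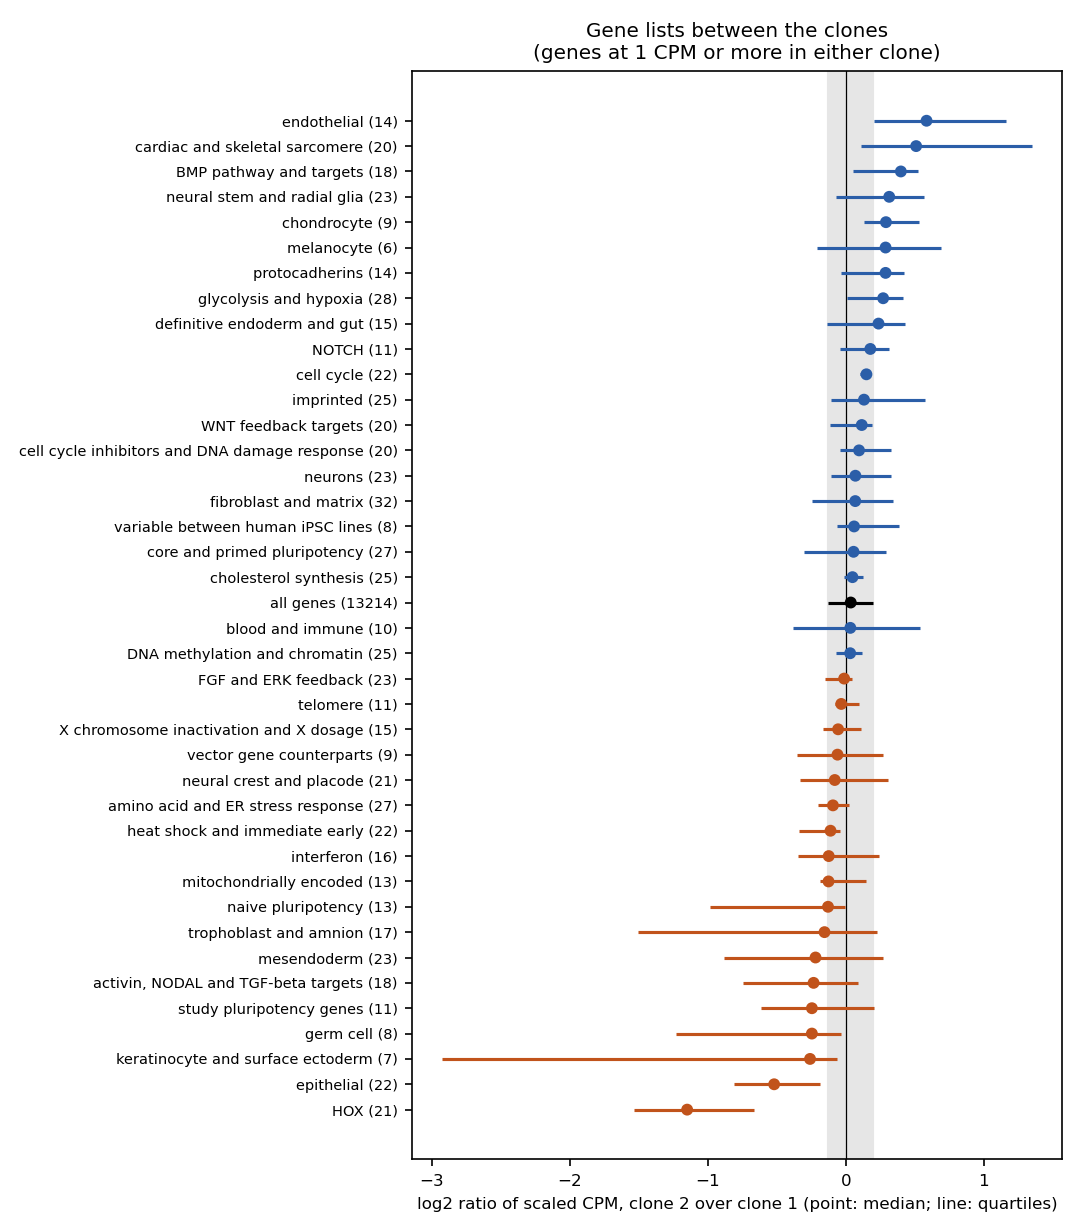
Median (point) and quartiles (line) of the log2 ratio, clone 2 over clone 1, for the measured members of each of the 39 gene lists, with the number of genes in brackets; the grey band spans the quartiles of all 13214 genes. HOX (median -1.15) and epithelial genes (-0.52) lie furthest on the clone 1 side, endothelial (0.59) and sarcomere genes (0.51) furthest on the clone 2 side, and most other lists lie in or near the band.

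Neural genes were divided. The neural stem and radial glia list had a median log2 ratio of 0.31. Of its 23 genes, 3 were at least 2-fold higher in clone 2 and 1 in clone 1, beside 1.79% and 3.22% of all genes. The eye and brain genes PAX6 (2.32 and 6.71 CPM, 2.89-fold), LHX2 (1.81 and 4.48 CPM, 2.47-fold) and RAX (0.295 and 1.11 CPM, on 7 and 51 counts) were higher in clone 2. In fibroblasts and iNSLCs PAX6 was higher than in either clone, at 21.5 and 14.55 CPM. LHX2 was at 2.55 and 0.768 CPM there, and RAX had 0 counts in both. EMX2 was at 3.59 CPM in clone 1 and 1.88 CPM in clone 2, below the 25.9 CPM of fibroblasts and 18.3 CPM of iNSLCs. For neurons the median was 0.07, with RBFOX3 at 1.48 and 3.06 CPM and ISL1 past 2-fold. The neural crest and placode list held TWIST2 (39.9 and 7.23 CPM, 5.51-fold, 4.86 to 6.26), ERBB3 and DLX3 at least 2-fold higher in clone 1, and its median was -0.08, or 0.049 with libraries scaled by total counts alone.

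Genes of the parental fibroblasts differed in both directions. On the fibroblast and matrix list 2 of 32 genes were at least 2-fold higher in clone 1 and 0 in clone 2, TWIST2 and PRRX1, a homeobox gene of limb and connective tissue (94.2 and 25.4 CPM, 3.72-fold, with 1120 CPM in fibroblasts). The receptor gene PDGFRB was at 11.6 and 22.6 CPM, VCAM1 at 1.90 and 3.54 CPM, the small proteoglycan gene LUM at 4.14 and 7.52 CPM, and the growth factor gene CCN2 at 193 and 105 CPM. FN1, the fibronectin gene, was at 2486 and 1884 CPM. The median over the list was 0.07.

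Imprinted genes, which are read from only the maternal or the paternal copy, lay in both directions. Of 25 measured, 2 were at least 2-fold higher in clone 2 and 1 in clone 1, beside 1.79% and 3.22% of all genes, with 15 ratios above 1 (median log2 ratio 0.13). The paternally expressed PEG3 (4.61-fold, 3.52 to 6.12, on 60 and 534 counts) and NNAT, a membrane protein gene (58.8 and 134 CPM, 2.28-fold, 2.15 to 2.42), were higher in clone 2. MAGEL2 was at 21.3 and 42.4 CPM (1.99-fold), the growth factor gene IGF2 at 28.8 and 56.6 CPM (1.97-fold) and DLK1, a NOTCH pathway ligand, at 39.6 and 64.8 CPM (1.63-fold). All 5 genes had 30 CPM or more in iNSLCs. DIRAS3, a small GTPase gene that is imprinted in humans, went the other way at 30.5 and 7.56 CPM (4.03-fold, 3.54 to 4.60). ZFP57, a zinc finger gene that protects imprints in mouse and human, was at 6.38 CPM in clone 1 and 1.64 CPM in clone 2 (3.89-fold, 2.93 to 5.20), the only one of 25 genes of DNA methylation and chromatin past 2-fold. The counts do not tell the parental copies apart.

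Metabolism differed modestly. Of 28 genes of glycolysis and hypoxia, 21 had ratios above 1 (median log2 ratio 0.27) and only BNIP3 was past 2-fold. The aldolase gene ALDOC was at 23.6 and 44.2 CPM (1.87-fold), P4HA1, a collagen prolyl hydroxylase, at 33.6 and 61.6 CPM (1.83-fold), PDK1, which restrains pyruvate oxidation, at 48.9 and 83.7 CPM (1.71-fold), and ENO2 at 30.8 and 51.6 CPM. Of the 7 members with ratios below 1, VEGFA, also induced by hypoxia, was furthest from equal at 154 and 88.1 CPM, and DDIT4 was at 73.5 and 58.5 CPM. Cell cycle genes were higher in clone 2 by a small and even margin, with a median log2 ratio of 0.15. Ratios were above 1 for 21 of 22, beside 7483 of 13214 for all genes. The member furthest apart was E2F1, a transcription factor of S phase entry (10.8 and 13.2 CPM, 1.22-fold). Among heat shock and immediate early genes 17 of 22 were lower in clone 2 (median -0.11), with EGR3 (14.02 and 5.27 CPM) and HSPA1L (1.60 and 0.481 CPM) past 2-fold. The median was -0.09 for the amino acid and ER stress response, where DDIT3 was at 4.31 and 2.08 CPM, and 0.10 for cell cycle inhibitors and DNA damage response genes, where CDKN2A was at 2.998 and 1.33 CPM. Of 16 interferon genes, IFIH1 (2.49 and 0.524 CPM) and PSMB9 were higher in clone 1 and CXCL10 (0.507 and 1.62 CPM) in clone 2.

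The other lists gave few genes. On the germ cell list TKTL1 (2.28 and 0.218 CPM, 10.4-fold), DND1 (3.97 and 1.53 CPM) and TFAP2C were at least 2-fold higher in clone 1. The melanocyte gene TYRP1 stood at 2 and 74 counts. Of 8 genes listed as variable between human iPSC lines, TSPYL5 was at 15.3 and 6.75 CPM (2.26-fold) and CAT and CHCHD2 lay within 1.07-fold. In the blood and immune list LCP1 was higher in clone 1 and PTPRC and TAL1 in clone 2. No gene was past 2-fold among 11 of NOTCH (median 0.18), 25 of cholesterol synthesis (0.05), 11 of telomeres (-0.03) or the 13 encoded in mitochondria (-0.13).

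The main text of the study reports an XX karyotype, normal in most cells analysed, for porcine iPSC no. 1, and no karyotype for no. 2. No autosome stood apart between the clones in these RNA ratios. Relative to the autosomal median, the medians of the 18 autosomes lay between -0.0243 and 0.0231 on the log2 scale. The X chromosome lay outside it at 0.0618, and its ratios were spread to the clone 2 side. Of 313 X-linked genes at 10 CPM or more in both clones, 64 (20.4%) exceeded 0.3 on the log2 scale, that is 1.23-fold, against 6.14% of 8439 autosomal genes. On the opposite side, 7.99% of X-linked and 8.71% of autosomal genes lay below -0.3. Of the X-linked ratios 62.0% lay above the autosomal median, against 44.1% to 55.7% on the single autosomes. Of 335 X-linked genes at 10 CPM or more in the higher clone, 0 were at least 2-fold higher in clone 2. At least 2-fold higher in clone 1 were 4, PAGE4, MAOA (61.1 and 16.3 CPM), GRIA3 (39.3 and 13.6 CPM) and MID2, the last 3 chosen after their values were seen. X-linked genes took 3.60% of the counts in clone 1 and 3.77% in clone 2.

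Along the chromosomes, the highest median among 7821 overlapping runs of 50 neighbouring genes was on the X chromosome. It was 0.219 in the run from ATP7A to IRS4, at 61.97 to 89.22 Mb of Sscrofa11.1, where 33 of the 50 ratios were above the autosomal median and 19 above 0.3. The members highest in clone 2 were IRS4, an insulin receptor substrate (17.0 and 32.5 CPM), the kelch family gene KLHL4 (63.5 and 110 CPM), and the neighbouring basement membrane collagen genes COL4A6 (16.0 and 25.6 CPM) and COL4A5 (117 and 176 CPM). The ARMCX and GPRASP genes between them, a family of armadillo repeat proteins, were mostly higher as well, such as ARMCX3 at 27.6 and 40.7 CPM. PCDH19 (20.4 and 10.5 CPM) and HNRNPH2 (110 and 68.7 CPM) lay on the other side. The lowest run on the X chromosome, from KIF4A to HNRNPH2 at 56.3 to 83.04 Mb (median -0.0225), overlaps the highest. The shift was thus not even along the run from ATP7A to IRS4. The lowest run of all, on chromosome 12, had a median of -0.109. Over the 263 X-linked genes outside the run from ATP7A to IRS4 the median was 0.0504.

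**Figure D4:**
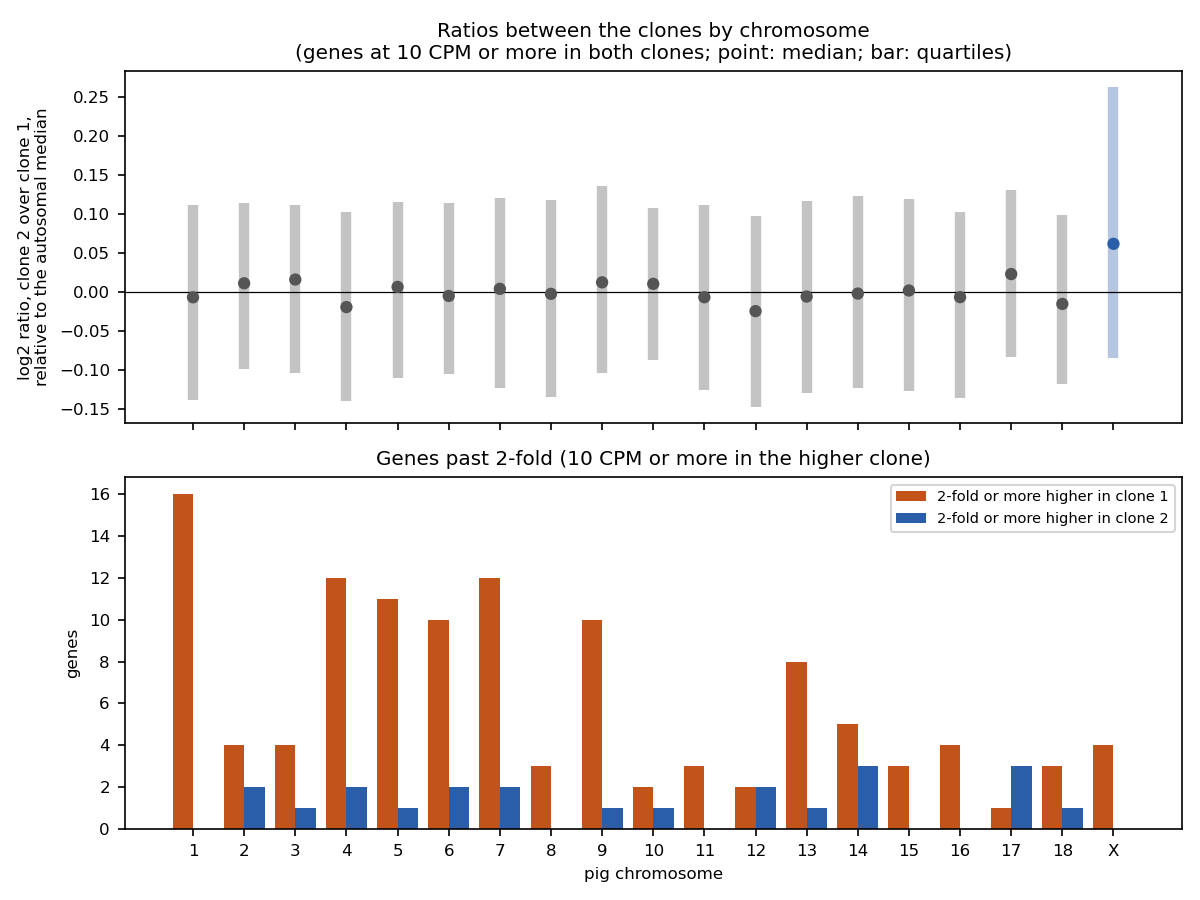
Upper panel, median (point) and quartiles (bar) of the log2 ratio of clone 2 over clone 1 by pig chromosome, relative to the autosomal median, for genes at 10 CPM or more in both clones; lower panel, number of genes at least 2-fold apart. The autosomal medians lie between -0.0243 and 0.0231 and the X chromosome at 0.0618, with its upper quartile at 0.262.

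A cluster of short gene models without symbols on the same chromosome was almost silent in clone 2 alone. They lie between CHIC1 and RLIM at X:59278318 to 59309690 in Sscrofa11.1. In mammals this interval holds the X-inactivation centre, from which a long non-coding RNA silences an X chromosome in female cells; no gene of that RNA was matched by name here. The 10 models, of 32 to 126 bases, held 291 counts in clone 1 and 21 counts in clone 2, that is 12.3 and 0.459 CPM (26.8-fold lower, 17.2 to 43.9). They held 576 counts (12.4 CPM) in fibroblasts and 1159 counts (40.4 CPM) in iNSLCs. Clone 1 was thus level with the fibroblasts, and clone 2 stood apart from the other 3 libraries. Among the members, ENSSSCG00000036841 (X:59286611 to 59286736) had 137 and 10 counts, ENSSSCG00000033718 (X:59278318 to 59278385) 62 and 2 counts, ENSSSCG00000032435 (X:59307891 to 59307975) 47 and 2 counts, and ENSSSCG00000033696 (X:59309309 to 59309345) 27 and 4 counts. The nearest gene on the other side of the group, ENSSSCG00000033530 (X:59346080 to 59346213), went the opposite way with 32 and 138 counts. The flanking genes did not share the difference: CHIC1 was at 17.0 and 16.4 CPM and RLIM, a ubiquitin ligase gene of the same region, at 76.4 and 69.5 CPM. Of 15 measured genes of X inactivation and X dosage, 0 were past 2-fold (median log2 ratio -0.06). The interval was examined after the values of its genes were seen, its models cover few bases, and whether it bears on the X-linked ratios above was not tested.

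Another stretch in which neighbouring models diverged was that of the clustered protocadherins on chromosome 2. These genes encode neuronal adhesion proteins, and each variable exon has a promoter of its own, of which a cell uses only some. Between HARS2 and DIAPH1, 20 models reached 1 CPM in either clone. Of these, 8 were at least 2-fold higher in clone 2 and 1 in clone 1, beside 1.79% and 3.22% of all genes. Most of the 20 models lay at low levels, where differences past 2-fold are more frequent. In either direction they held for 15.9% of all genes at a mean of 1 to 3 CPM and 6.41% at 3 to 10 CPM. PCDHAC2 was at 13.3 and 20.3 CPM (1.53-fold), PCDHGA4 at 40.4 and 50.1 CPM (1.24-fold), and PCDHGB1 at 1.14 and 2.43 CPM. Single models without a symbol differed far more than these. ENSSSCG00000014378 had 4 and 133 counts (17.2-fold higher in clone 2, 6.57 to 64.1), ENSSSCG00000024762 had 37 and 502 counts (7.02-fold, 5.03 to 10.1), and ENSSSCG00000023485 had 28 and 248 counts (4.58-fold). ENSSSCG00000021051 went the other way with 48 and 12 counts (7.73-fold, 4.04 to 16.0). All 4 were at 2 CPM or more in both fibroblasts and iNSLCs. Summed over the 20 models, which include the unrelated TAF7 (139 and 159 CPM), the clones were 1.26-fold apart. The models overlap and resemble each other, so reads could have been shared among them. Outside these clusters, PCDH9 on chromosome 11 was at 63.0 and 16.7 CPM (3.78-fold higher in clone 1).

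**Figure D5:**
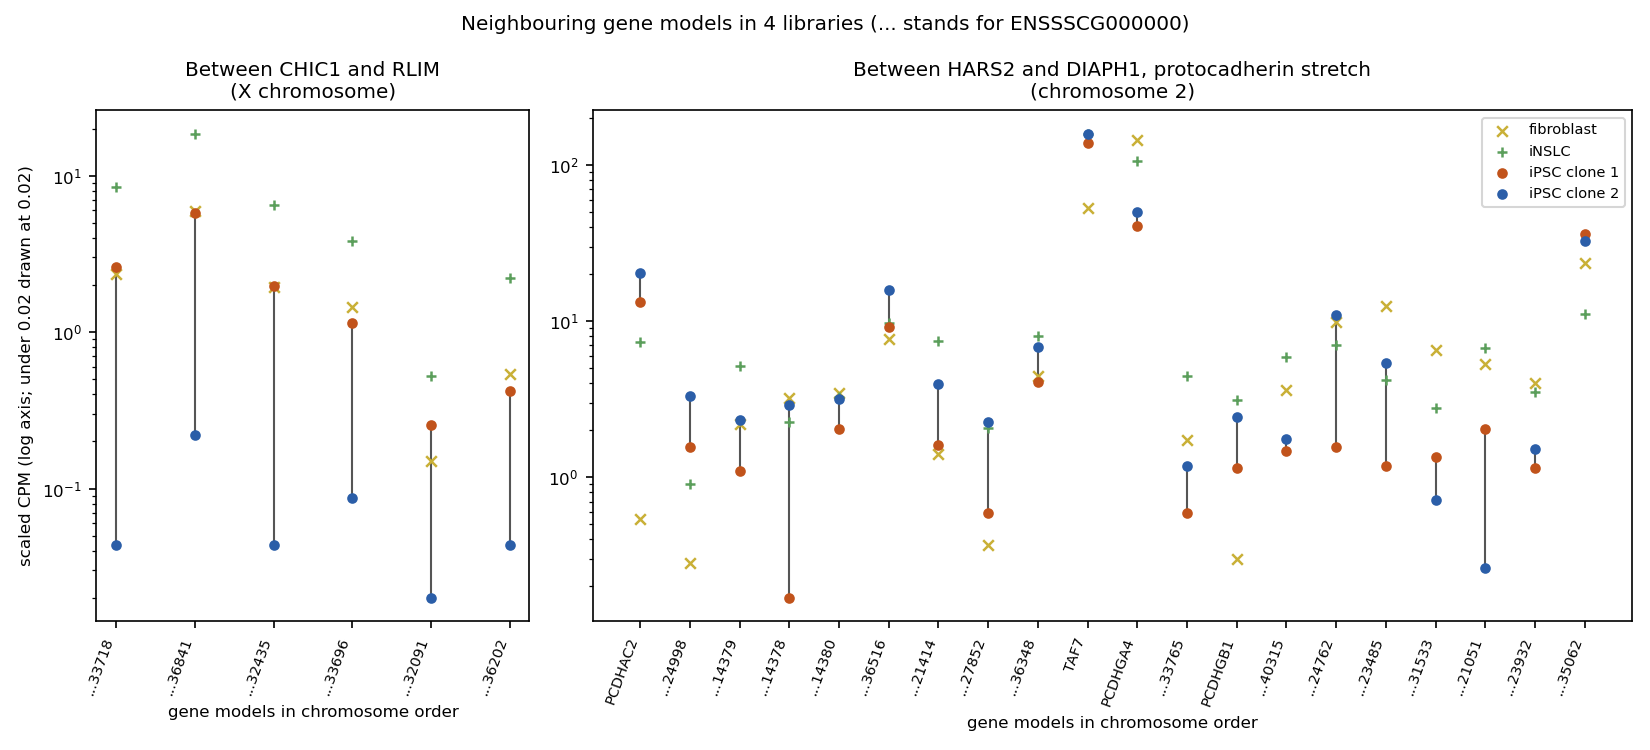
Levels in scaled CPM (log axis) of neighbouring gene models in the 4 libraries, in chromosome order. Left, models between CHIC1 and RLIM with 10 or more counts in clone 1, iNSLCs or fibroblasts, where clone 2 lies lowest at each; right, 20 models of the protocadherin stretch of chromosome 2, where single models such as ENSSSCG00000014378 (17.2-fold) and ENSSSCG00000021051 (7.73-fold) lie apart in opposite directions.

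Few of the other genes past 2-fold were neighbours. Among genes at 10 CPM or more, 7 pairs of adjacent genes within 500 kb were both past 2-fold, 5 in the same direction and 2 in opposite directions. BNIP3 and DPYSL4, both higher in clone 2, lie 129589 bases apart on chromosome 14, and the claudin gene CLDN1 and IL1RAP, both higher in clone 1, 202830 bases apart on chromosome 13. EHHADH with MAP3K13 and YOD1 with PFKFB2, all higher in clone 1, overlap at their ends by 330 and 88 bases, where reads cannot be assigned to either gene. LY6K, 14.4-fold higher in clone 2, stands next to LY6E (13.3 and 6.18 CPM), which was 2.16-fold higher in clone 1, and TNNI1 next to LAD1, likewise in opposite directions.

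Genes without a symbol were a further part of the clone 1 side. They made up 17 of the 117 genes at least 2-fold higher in clone 1 (14.5%) and 2 of the 22 higher in clone 2 (9.09%), against 281 of all 9250 genes (3.04%). Of the 17, 5 were under 1 CPM and 8 under 2 CPM in both fibroblasts and iNSLCs. Clone 1 had the highest level of the 4 libraries for 14, which follows in part from picking genes by the gap between the clones. The one furthest apart, ENSSSCG00000012570 on chromosome 4, was at 26.4 and 3.12 CPM (8.43-fold), with 0.663 CPM in iNSLCs and 0 counts in fibroblasts.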

How the data were processed

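Whole-number read counts per gene were deposited by the authors without normalization, for 4 libraries. Their processing notes name Trim Galore 0.4.0, STAR 2.5.3a and featureCounts 1.5.2 and the Sscrofa11.1 build. The sources used here do not give the strand setting of the counting. Groups, clone numbers and passages came from the labels. Symbols were assigned by Ensembl identifier (14857 of 25880 genes) or by position in the RefSeq annotation of that assembly (1812 genes, POU5F1, SOX2, ZFP42, LY6K and BNIP3 among them; overlap of 80% or more of the shorter span), with the same symbol in 95.03% of 13169 genes named both ways. The remaining 9211 genes kept their identifiers. Sequences are not used here.

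Library sizes were scaled by TMM (edgeR 4.0.16, R 4.3.3) over the 4 libraries and 15739 genes kept by filterByExpr, with factors of 0.742 (fibroblasts), 1.11 (iNSLCs), 1.09 (clone 1) and 1.11 (clone 2). Scaled CPM ratios of clone 2 to clone 1 were computed in Python 3.11.15 (numpy 2.4.6) with counts below 3 raised to 3, and checked on simulated data. With 1 library a clone no test was made. Genes were counted by size at 10 CPM or more in the higher clone, and list members at 1 CPM or more in either clone. The text names the 20 highest and 20 lowest ratios among genes with a symbol, the 5 largest CPM gains and falls, all genes of the study's pluripotency and vector lists, up to 6 members of each other list by size of ratio, and the members of stretches described; all other names, the stretches themselves among them, were chosen after their values were seen, apart from markers of the labelled cells. A few genes that this rule names are not reported here. The comparison and the 39 lists, from textbook knowledge except the study's, were chosen with earlier results of these data known.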

Additional observations from a re-analysis of the deposited data

How the results depend on the processing

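The counts of genes past 2-fold and 4-fold stayed within 1.5 times under RLE, total-count, upper-quartile and clones-only TMM scaling, 0.5 added to every count, thinning of clone 2 to the total of clone 1, and without mitochondrial genes (21 to 26 genes 2-fold higher in clone 2 and 117 to 134 in clone 1). The minimum level set their size. With 1 CPM, 237 and 426 genes were 2-fold higher in clone 2 and clone 1, and 23 and 163 4-fold; with 30 CPM, 7 and 52, and 0 and 7; with no minimum, 604 and 1124, and 65 and 336. Restricting lists to members at 10 CPM or more gave medians of -0.10 (study pluripotency genes), -0.37 (epithelial), -0.062 (keratinocyte and surface ectoderm), 0.22 (endothelial), -0.31 (blood and immune) and 0.18 (protocadherins), turned that of NOTCH to -0.029, and left no HOX gene. Total counts gave 0.049 for neural crest and placode. The other 225 of 233 list medians moved by under 0.1, as did all 95 chromosome medians. Of 1280 ratios of 256 named genes, 30 left their counting interval and 0 changed sign past 2-fold. No paired analysis was possible because each clone had 1 library.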
